A study of Homo sapiens and Mus musculus with 12 samples.

Results

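The subject is the change in ribosome loading between 2 states, S and P, of A375, a human melanoma cell line with mutant BRAF. For each gene, the log2 ratio of TPM (a read density per length of transcript, scaled to a sum of 1000000 over all transcripts) in the polysome library over the monosome library was taken in S and in P. The change is the ratio in S minus the ratio in P, on log2(TPM + 1), relative to the median gene, so that a positive change means more polysomal in S. Only genes with at least 5 TPM in all 6 A375 libraries were kept, which were 5673 of the 16782 genes listed. The 11109 left out included 1005 that fell below the floor only in S libraries and 1042 only in P libraries, and 5993 were under the floor in every library. The genes nearest to the floor were ZNF343, kept with 5.0006 TPM in S monosomes, and AEN, left out with 4.995 TPM in the same library.

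Per the series description, parental cells and drug-tolerant persister cells, which outlive a drug without stable resistance, were profiled in A375 and in the mouse melanoma line Yumm1.7. The labels give only the letters S and P, without saying which letter is which kind of cell, and they name no drug, dose or time. A375 S gave 1 polysome library (the densest bottom fractions of a sucrose gradient), 1 monosome library (the single-ribosome peak pooled with several lighter fractions) and 1 input library from RNA before the gradient, and A375 P gave the same 3. Yumm1.7 S and P were sampled in the same way, so the 12 libraries hold 1 per group. The gradient between the monosome peak and the bottom fractions is not analysed here, and the monosome pool also holds RNA from fractions lighter than the ribosome peak.

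With 1 library per group, no change below has a replicate check. There is no test, p-value or standard error, and a change of at least 2-fold (log2 of 1) is only counted. Read depth cannot be had from TPM. Listed genes made up 66.6% to 90.1% of the 1000000 TPM of each A375 library. Mitochondrial ribosomal RNA took 24.8% of it in S monosomes and 2.06% in P monosomes. Of 6 melanoma markers, 5 were listed and summed to between 429 and 863 TPM in the S libraries and between 259 and 586 TPM in the P libraries. Markers of leukocytes (1 of 10 listed) and of endothelium (2 of 9) summed to at most 3.36 TPM for leukocytes and 1.54 TPM for endothelium in any library. Of 10 fibroblast markers 4 were listed, with sums of 4.45 to 17.95 TPM in S and 1.6 to 7.34 TPM in P, and of 10 keratinocyte markers 4, nearly all of it KRT10.

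Ribosomes follow each other along an mRNA, so an mRNA that is started often sediments deep in the gradient, and one that is blocked or rarely started stays near the top. A long reading frame has room for more ribosomes than a short one. The position of an mRNA in the gradient therefore reflects initiation, elongation and length together, and is a usual measure of how well an mRNA is translated.

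As deposited, the median gene had a log2 polysome-to-monosome ratio of 0.84 in S and 1.25 in P, and the median gene's change was -0.33. Relative to that median, 637 genes (11.2%) were at least 2-fold more polysomal in S and 291 (5.13%) at least 2-fold less, so that 68.6% of the genes past 2-fold were higher in S. The shares of 11.2% and 5.13% are the background for the counts of each gene group below. Without centring on the median gene the counts were 346 higher and 843 lower, and 29.1% of the genes past 2-fold were higher. The remaining 83.6% of genes were within 2-fold of the median gene, with quartiles of -0.45 and 0.50 and extremes of -3.67 and 6.63. Ratios were less spread out over genes in S (SD 1.18) than in P (SD 1.33). Groups with high median changes were the mRNAs of the mitochondrial genome (3.79), the noncoding host genes of snoRNAs (0.77) and the selenoprotein mRNAs (0.76), and both ferritin mRNAs were past 2-fold higher in S. Groups with low medians were the genes of G1/S and DNA replication (-0.83), integrins and cell adhesion (-0.68) and G2/M and mitosis (-0.67).

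**Figure D1:**
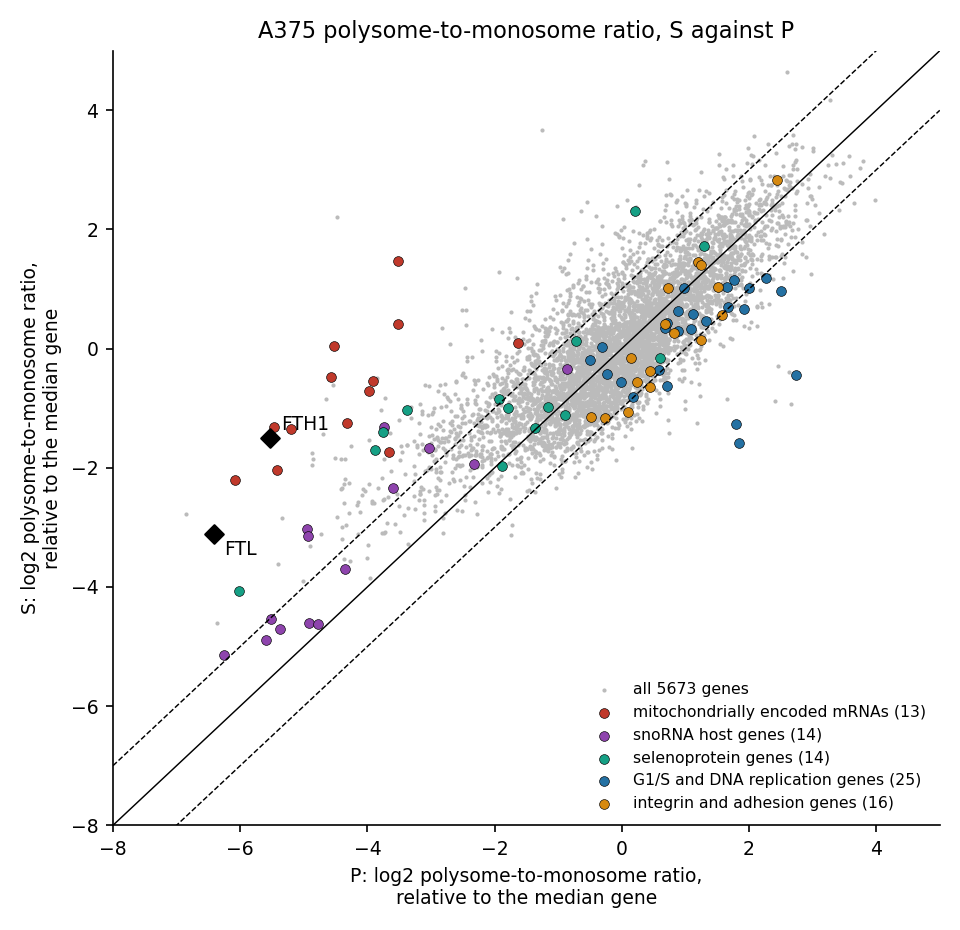
Log2 polysome-to-monosome ratio of 5673 A375 genes in S (vertical axis) against P (horizontal axis), each relative to the median gene of its state, with 1 point per gene and colours for 5 gene groups. The solid line marks equal ratios and the dashed lines a 2-fold difference; all 13 mitochondrially encoded mRNAs lie above the upper dashed line, and ferritin FTH1 and FTL lie with them.

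Ferritin stores iron in the cytosol, and its translation is controlled through the iron-responsive element, a short hairpin near the start of the mRNA. Iron regulatory proteins bind the hairpin when iron is scarce and keep the ribosome from loading. The same hairpin in the 3′ UTR of the transferrin receptor mRNA TFRC stabilises the mRNA instead. The elements of ferritin and TFRC are shown because the ferritin mRNAs, with one in the 5′ UTR, and TFRC, with copies in the 3′ UTR, lay on opposite sides of the median gene. Capitals mark the 6-base loop, and the bases on either side of it pair into the stem. They were read from GENCODE 29 transcripts (GRCh38).
FTH1: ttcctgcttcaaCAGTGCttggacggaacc
FTL: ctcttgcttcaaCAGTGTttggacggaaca
TFRC copy 1: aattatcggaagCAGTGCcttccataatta
TFRC copy 2: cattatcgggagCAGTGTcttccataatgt
The FTH1 element lies at chr11:61967573-61967602 (minus strand) and that of FTL at chr19:48965335-48965364 (plus strand), both in the 5′ UTR. The TFRC copies shown, 2 of 4 found, are at chr3:196050978-196051007 and chr3:196050574-196050603 (minus strand), in the 3′ UTR.

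Both ferritin mRNAs were far more polysomal in S. FTH1, the ferritin heavy chain, had 3072 TPM in S polysomes and 4873 TPM in S monosomes, against 632 TPM in P polysomes and 12266 TPM in P monosomes. Its input level was 3970 TPM in S and 2688 TPM in P, and its change was 3.95. FTL, the light chain, had 2236 TPM in S polysomes and 10824 TPM in S monosomes, against 337 TPM in P polysomes and 12113 TPM in P monosomes, a change of 3.22. For both chains the polysome level was higher in S and the monosome level lower in S, while in each state the monosome level exceeded the polysome level. Together they made up 0.531% of the 1000000 TPM in S polysomes and 0.0969% in P polysomes. Ferritin genes have many processed pseudogenes, so the split of their reads between copies is uncertain.

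TFRC, which takes up iron bound to transferrin, had 32.0 TPM in S polysomes and 42.9 TPM in S monosomes, against 189.8 TPM in P polysomes and 108.1 TPM in P monosomes, which gave a change of -0.88, within 2-fold. SLC11A2, the iron transporter DMT1, which has a 3′ element in some transcripts, had a change of -0.19. Of 10 listed genes of this iron group, 8 were in the table and 5 passed the floor, with 3 past 2-fold higher in S and none past 2-fold lower. With no filter on low values the 8 had a median of -0.18.

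A search for the hairpin pattern (the bulged C, a stem of 5 pairs and a CAGTGN loop, sense strand only), chosen after these values were seen, matched 21 of 18197 annotated 5′ UTRs (0.115%). Of the 7 matched genes that passed the floor, 3 were past 2-fold higher in S, FTH1 and FTL among them. Within 2-fold were PRPF18 at 0.53, ADAR at -0.39, ENC1 at -0.54 and GART at -0.68. In 3′ UTRs the pattern matched 104 of 18769 (0.554%), and of 32 genes that passed, 3 were higher and 1 lower, with a median change of -0.08. A match to letters does not show that a regulatory protein binds there.

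Mitochondria keep a small genome whose 13 mRNAs encode subunits of the respiratory chain and are read by mitochondrial ribosomes, which are separate from the cytosolic ones. These mRNAs normally sediment with the light part of a gradient, together with the mitochondrial ribosomes. All 13 passed the floor and all 13 were at least 2-fold higher in S (against 11.2% of all genes), with a median change of 3.79 and a range from 1.65 for MT-ND5 to 4.92 for MT-ATP8. Their median ratio relative to the median gene was -0.70 in S and -4.32 in P. Both parts of the ratio moved: the median S minus P difference was 1.47 in polysomes and -1.92 in monosomes, beside 0.49 in input RNA.

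MT-ND1, a core subunit of complex I, had 7319 TPM in S polysomes and 3971 TPM in S monosomes, against 739.9 TPM in P polysomes and 7136 TPM in P monosomes, a change of 4.48. MT-CO2, a catalytic subunit of cytochrome c oxidase, had 4549 TPM in S polysomes and 11679 TPM in S monosomes, against 2153 TPM in P polysomes and 61622 TPM in P monosomes, a change of 3.81. The P monosome library was the highest of the 4 for MT-CO2 and the S polysome library the highest for MT-ND1. MT-CO1, the other catalytic subunit, had 11835 TPM in S polysomes and 10755 TPM in S monosomes, against 3387 TPM in P polysomes and 22491 TPM in P monosomes, a change of 3.20. MT-ND6, the sole mRNA read from the light strand, had 5889 TPM in S polysomes and 4788 TPM in S monosomes, against 638 TPM in P polysomes and 4043 TPM in P monosomes, a change of 3.29. Its input level also differed most among these mRNAs, 14383 TPM in S and 2481 TPM in P.

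The ATP synthase subunits MT-ATP8 and MT-ATP6 are read from one bicistronic mRNA in overlapping frames, and so are the complex I subunits MT-ND4L and MT-ND4. The stretch shared by the first pair is shown because reads in it cannot be assigned to either gene, with the start codon of MT-ATP6 in capitals (chrM:8527-8572, plus strand).
MT-ATP8 and MT-ATP6: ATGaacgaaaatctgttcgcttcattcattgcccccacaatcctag
MT-ATP8 had 2287 TPM in S polysomes and 457 TPM in S monosomes, against 1587 TPM in P polysomes and 7620.3 TPM in P monosomes, a change of 4.92. MT-ATP6, on the same mRNA, had 4811 TPM in S polysomes and 6808 TPM in S monosomes, against 2039 TPM in P polysomes and 31698 TPM in P monosomes, a change of 3.79. The members of the second pair had changes of 3.85 for MT-ND4L and 4.09 for MT-ND4. Frames on one mRNA thus differed by 1.13 on the log2 scale in the first pair and by 0.24 in the second, although they share a molecule.

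The 22 mitochondrial tRNA genes were looked at after their values were seen. Of 21 that passed, 14 were at least 2-fold higher in S and 3 lower, with a median change of 2.27. The highest change of all 5673 genes was that of MT-TL1, a leucine tRNA gene, with 4138 TPM in S polysomes and 496 TPM in S monosomes, against 179 TPM in P polysomes and 1694 TPM in P monosomes (6.63). The lower ones were MT-TF at -1.46, MT-TS2 at -1.25 and MT-TH at -1.01. These genes are 59 to 75 bases long, while the library fragments of 370 to 420 bases given in the labels are longer, so reads counted on them and on the neighbouring genes cannot be told apart here. The ribosomal RNAs of the same genome went opposite ways: MT-RNR2 had a change of 1.68 and MT-RNR1 one of -1.499, and both were higher in S in polysomes and in monosomes. MT-RNR1 had 533 TPM in S polysomes and 92135 TPM in S monosomes, against 65.1 TPM in P polysomes and 3202 TPM in P monosomes. MTCO3P12, a nuclear copy of MT-CO3 on chromosome 1, had a change of 3.85, and its reads are hard to separate from those of MT-CO3 (3.31).

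Nuclear genes for respiratory chain subunits stood much closer to the median gene. Of 38 complex I subunits, 36 passed, 5 were higher and none lower (median 0.29), and of 39 subunits of complexes III to V, 2 were higher and 1 lower (median 0.28). The complex I members past 2-fold were led by NDUFA3 at 1.997, NDUFA8 at 1.31, NDUFA5 at 1.20 and NDUFA12 at 1.19, all small accessory subunits. ATP5F1A, the alpha subunit of ATP synthase, was lower at -1.42. Of 78 mitochondrial ribosomal proteins only 29 were listed for A375, and all 29 passed the floor. Among them 1 was higher, MRPS22 at 1.31, and none lower (median 0.07). Of 33 mitochondrial chaperones and import proteins 3 were higher and 2 lower (median -0.05), with the protease subunit CLPP at 1.52, the small import chaperone TIMM8B at 1.42, the chaperonin HSPD1 at -1.62 and the HSP90 paralogue TRAP1 at -1.10.

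**Figure D2:**
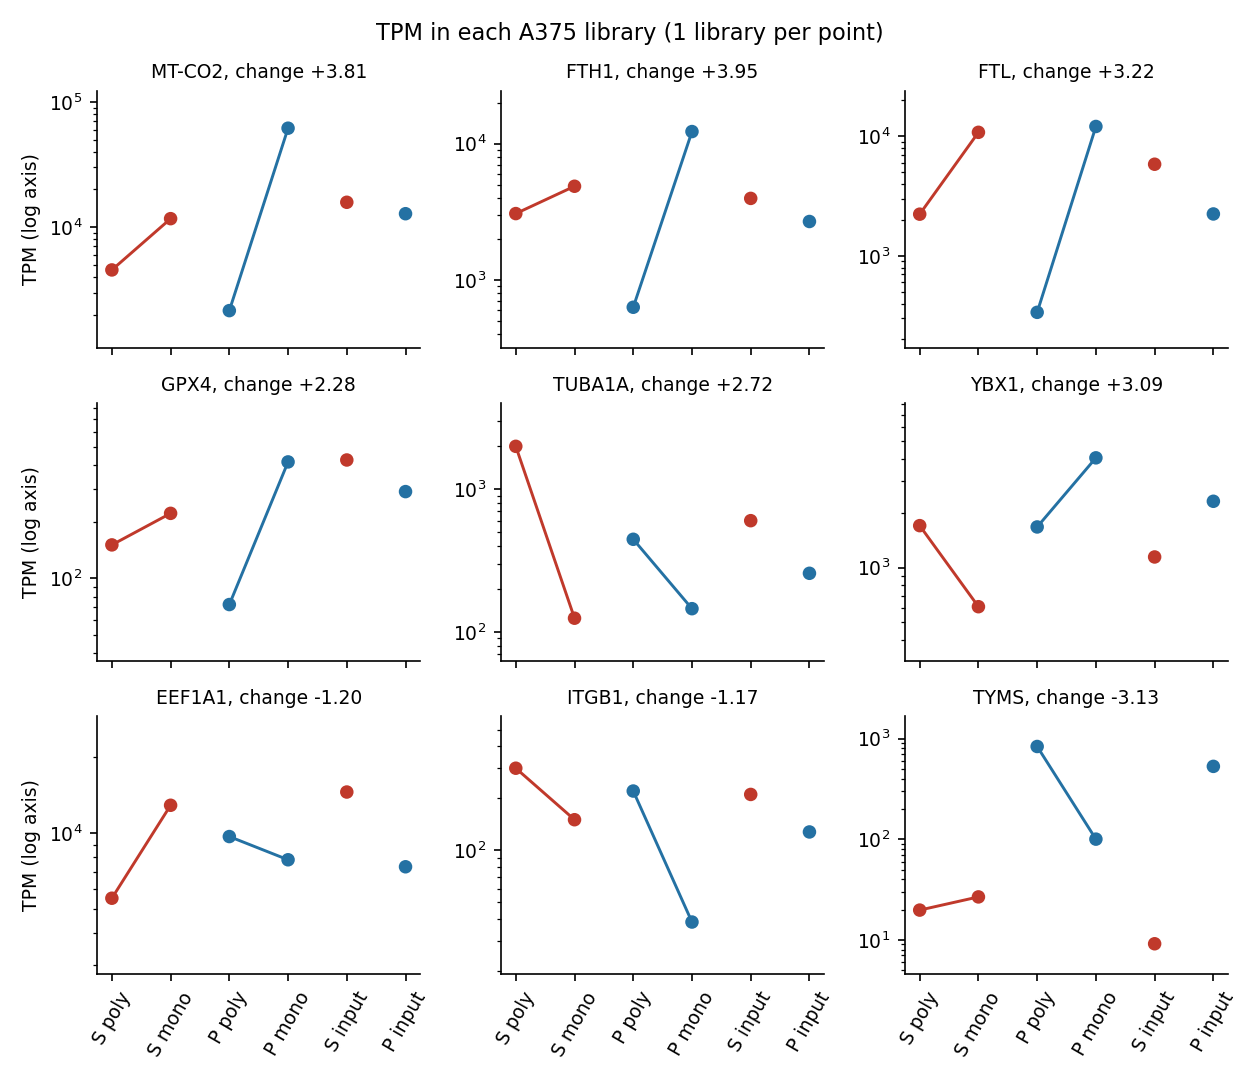
TPM (log axis) of 9 genes in the 6 A375 libraries, S in red and P in blue, with 1 library per point, lines joining the polysome and monosome libraries of a state, and the change in each title. MT-CO2, FTH1, FTL and GPX4 tilt towards monosomes in both states but less so in S, TUBA1A tilts more towards polysomes in S, YBX1 tilts towards polysomes in S and towards monosomes in P, and EEF1A1, ITGB1 and TYMS tilt less towards polysomes in S.

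Selenoproteins carry selenocysteine, which is inserted at a UGA codon that would otherwise end translation, with the help of a hairpin in the 3′ UTR and a dedicated elongation factor. Many are antioxidant enzymes. Of 20 listed genes 14 passed, with 6 higher by at least 2-fold in S and none lower by as much (median 0.76), against 11.2% higher and 5.13% lower among all genes. The median was 0.50 for the 12 genes left with a floor of 10 TPM and 0.22 for 19 genes with no filter. The codon is shown in capitals for the 6 higher members and for TXNRD1, the lowest one, because its place in the frame differs between them (GENCODE 29, sense strand).
GPX4: gtggcctcccagTGAggcaagaccgaa
SELENOH: cattgcactagcTGAcgcgtctatggg
GPX1: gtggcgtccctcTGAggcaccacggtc
TXNRD2: gtgacaggctgcTGAgggtaa
SELENOW: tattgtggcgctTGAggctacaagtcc
SELENOM: acctgcgggggaTGAcagctgaaccgc
TXNRD1: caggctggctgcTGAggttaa
The GPX4 codon window is chr19:1105391-1105417, that of GPX1 chr3:49358120-49358146, that of TXNRD2 chr22:19877105-19877125, that of SELENOM chr22:31105939-31105965 and that of TXNRD1 chr12:104348401-104348421. Those of SELENOH and SELENOW span an intron. The codon is residue 73 of 197 in GPX4, 49 of 203 in GPX1, 44 of 122 in SELENOH, 13 of 87 in SELENOW and 48 of 145 in SELENOM, and the next to last residue in both thioredoxin reductases.

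GPX4, which reduces lipid peroxides in membranes, had 151 TPM in S polysomes and 221 TPM in S monosomes, against 72.5 TPM in P polysomes and 416 TPM in P monosomes, a change of 2.28. GPX1, the cytosolic glutathione peroxidase, had 223 TPM in S polysomes and 405 TPM in S monosomes, against 123 TPM in P polysomes and 767 TPM in P monosomes, a change of 2.11. In both, polysome levels were higher in S and monosome levels lower. SELENOH, a small nucleolar protein, had a change of 2.27, SELENOW one of 1.87 and SELENOM, of the endoplasmic reticulum, one of 1.01. TXNRD2, the mitochondrial thioredoxin reductase, had 58.6 TPM in S polysomes and 5.74 TPM in S monosomes, against 31.1 TPM in P polysomes and 10.7 TPM in P monosomes (2.02). Its cytosolic counterpart TXNRD1 had 63.1 TPM in S polysomes and 38.8 TPM in S monosomes, against 283 TPM in P polysomes and 77.6 TPM in P monosomes (-0.83). The reductases end in near-identical codons but lay on opposite sides of the median gene. The other 7 members ranged from -0.31 for SEPHS2 to 0.78 for SELENOK. The wider group of antioxidant genes, which shares ferritin and the peroxidases with these lists, had 4 of 30 higher and 1 lower (median -0.16). All 4 higher ones were shared genes, namely FTH1, FTL, GPX4 and GPX1.

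The alpha-tubulins had the highest changes of the cytoskeletal genes. Tubulin mRNAs are subject to a feedback in which the first residues of the new protein, still on the ribosome, mark the mRNA for decay when free tubulin is abundant. The first codons are shown for alpha- and beta-tubulins, with the 4 codons read in that feedback in capitals, because these differ between the families (GENCODE 29; the alpha-tubulin windows span an intron).
TUBA1A: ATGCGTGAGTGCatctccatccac
TUBB: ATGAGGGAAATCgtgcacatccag
TUBB4B: ATGAGGGAAATCgtgcacttgcag
TUBA1A had 1995 TPM in S polysomes and 124.7 TPM in S monosomes, against 445 TPM in P polysomes and 145 TPM in P monosomes, a change of 2.72. TUBA1C had 260.1 TPM in S polysomes and 59.6 TPM in S monosomes, against 554 TPM in P polysomes and 418 TPM in P monosomes (2.03). TUBA1B had 1150.03 TPM in S polysomes and 362 TPM in S monosomes, against 3462 TPM in P polysomes and 2997 TPM in P monosomes (1.79). Thus TUBA1A was higher in S polysomes with a near-equal monosome level, while TUBA1B and TUBA1C were lower in S in every library and most so in monosomes. Their beta partners had changes of -0.35 for TUBB, -0.46 for TUBB4B and -0.59 for TUBB6. The alpha-tubulin genes are close in sequence, so the share of each is less certain than the family. Of 38 tubulin and actin genes measured, 8 were higher and none lower (median 0.10), the others being ARPC1A at 1.55 and ARPC1B at 1.52, subunits of the ARP2/3 complex, the actin-binding peptides TMSB10 at 1.46 and TMSB4X at 1.24, and the myosin light chain MYL6 at 1.18.

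A few genes moved across the median, from a ratio at least 2-fold below the median gene in one state to at least 2-fold above it in the other. There were 7 low in P and high in S, and 3 the other way. NOP56, a core protein of the box C/D snoRNA particle, had 191 TPM in S polysomes and 52.0 TPM in S monosomes, against 420.2 TPM in P polysomes and 977 TPM in P monosomes, a change of 3.41. Its input level was 82.0 TPM in S and 477 TPM in P. SNORD86, a snoRNA that lies inside NOP56 and was named after its value was seen, had a change of 3.29, with 7.41 TPM in S monosomes and 609 TPM in P monosomes, and reads of the host transcript and of the snoRNA cannot be told apart. TUBA1B-AS1, next to TUBA1B on chromosome 12 but with no overlap, had 210.0 TPM in S polysomes and 8.24 TPM in S monosomes, against 695 TPM in P polysomes and 699 TPM in P monosomes (4.86). NME3, a nucleoside diphosphate kinase, had 251 TPM in S polysomes and 61.1 TPM in S monosomes, against 23.0 TPM in P polysomes and 30.8 TPM in P monosomes (2.76).

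YBX1P1, a processed pseudogene, had a change of 3.14, and its parent YBX1, an abundant mRNA-binding protein named after its value was seen, one of 3.09. YBX1 had 1707 TPM in S polysomes and 609 TPM in S monosomes, against 1678 TPM in P polysomes and 4043 TPM in P monosomes. Its polysome level was nearly equal in both states, and the difference lay in the monosome libraries. YBX1 itself was not past 2-fold above the median gene in S and so is not among the 7. Nor is the small heat shock protein HSPB1, which lay within 2-fold of the median gene in P. It had 1070 TPM in S polysomes and 119.8 TPM in S monosomes, against 347 TPM in P polysomes and 227 TPM in P monosomes (2.87). The 3 genes high in P and low in S were TK1, TYMS and FANCI, of nucleotide synthesis and DNA repair.

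Noncoding host genes of snoRNAs carry snoRNAs in their introns, and their spliced RNA is poorly coding. Of the 44 gene groups with a median ratio they were the least polysomal in both states, with median ratios relative to the median gene of -3.42 in S and -4.85 in P. All 14 that passed the floor, of 25 listed, had a positive change, 6 of them past 2-fold (median 0.77). The highest were SNHG12 at 2.35, SNHG3 at 1.85, SNHG6 at 1.72 and SNHG7 at 1.29, and the lowest was GAS5 at 0.09. SNHG3 had 5.37 TPM in S polysomes and 27.8 TPM in S monosomes, against 35.7 TPM in P polysomes and 475 TPM in P monosomes. It was lower in S in both fractions, by more in monosomes than in polysomes. The median S minus P difference of the group was -0.48 in polysomes, -1.24 in monosomes and -0.38 in input. Other long noncoding RNAs, with 9 measured, had none past 2-fold (median 0.18).

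The mRNAs of the protein synthesis machinery did not move as one block. mRNAs with a terminal oligopyrimidine (TOP) tract, through which mTORC1 controls their translation, had 4 of 30 higher and 3 lower (median 0.09). Counted among the higher ones was SNHG1 at 1.19, a noncoding snoRNA host gene on this list. TPT1, a TOP mRNA long used as a model for this control, had 752 TPM in S polysomes and 2294 TPM in S monosomes, against 391 TPM in P polysomes and 2784 TPM in P monosomes (1.55). EEF1A1, the elongation factor that delivers aminoacyl-tRNA, had 5507 TPM in S polysomes and 12884 TPM in S monosomes, against 9679 TPM in P polysomes and 7828 TPM in P monosomes (-1.20). It was higher in monosomes than in polysomes in S and the other way round in P, with an input level of 14543 TPM in S and 7342 TPM in P. Its paralogue EEF1A2 had a change of 1.21, and the translocase EEF2 one of 0.90. The poly(A)-binding protein PABPC1 was at 0.72. The nucleolar TOP mRNA NPM1 had 2485 TPM in S polysomes and 1085 TPM in S monosomes, against 6177 TPM in P polysomes and 974 TPM in P monosomes (-1.13).

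Only 6 of 79 cytosolic ribosomal protein genes were listed for A375. All 6 passed the floor, with 1 higher and none lower (median 0.48), and the others, not listed, were not analysed here. RPLP1 was at 1.03, RPLP0 at 0.60 and FAU at -0.52. Of 42 initiation factors 3 were higher and 4 lower (median -0.18). The higher ones were the subunit-joining factor EIF5B at 1.27, the EIF3 subunit EIF3L at 1.01 and EIF4EBP2, a repressor that binds the cap-binding protein eIF4E, at 1.004. The lower ones were EIF3B at -1.19, EIF2S3, of the initiator tRNA complex, at -1.16, the scaffold EIF4G3 at -1.08 and EIF3M at -1.03. The cap-binding factors were within 2-fold, with EIF4E at -0.40, its scaffold EIF4G1 at -0.79 and the helicase EIF4A1 at -0.87. So was EIF5A at -0.48. Of 13 elongation and release factors 1 was higher and 1 lower (median -0.38).

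Cytosolic tRNA synthetases had 2 of 18 lower, GARS1 at -1.39 and WARS1 at -1.28, and none higher (median -0.51). Of 61 ribosome biogenesis factors 9 were lower and 3 higher (median -0.49). NCL, nucleolin, had 955 TPM in S polysomes and 94.1 TPM in S monosomes, against 1512 TPM in P polysomes and 39.3 TPM in P monosomes (-1.57), and remained strongly polysomal in both states. HEATR1, of the small-subunit processome, was at -1.48. The higher ones were NOP56, its partner NOP58 at 1.47 and GNL2 at 1.16. Splicing proteins had 4 of 67 lower and none higher (median -0.20), led by PRPF19 at -1.48, SNRPA1 at -1.35 and HNRNPM at -1.28.

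**Figure D3:**
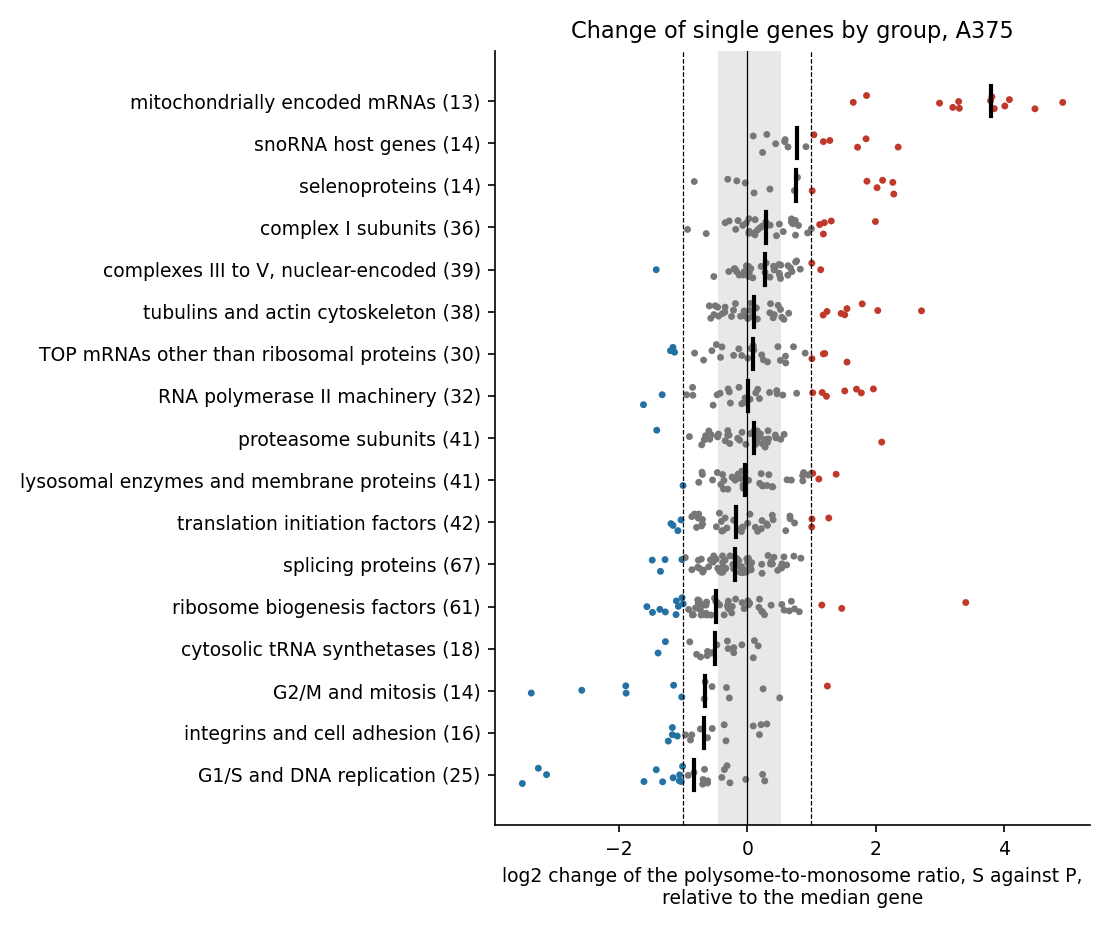
Change of single A375 genes (horizontal axis, log2, relative to the median gene) in 17 gene groups, with the number measured in brackets, black bars at the group medians, red and blue points for genes past 2-fold higher and lower in S, and grey shading for the quartiles of all genes. Mitochondrially encoded mRNAs stand alone at the top with a median of 3.79, and G1/S genes are at the bottom with -0.83.

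At the low end stood mRNAs of dividing cells. The 15 lowest changes included TACC3, of the mitotic spindle, at -3.67, TK1 at -3.51, CCNB1 at -3.37, MCM7 at -3.26, TYMS at -3.13 and HMGB2 at -2.82. TYMS, thymidylate synthase, had 19.8 TPM in S polysomes and 26.7 TPM in S monosomes, against 836 TPM in P polysomes and 100.2 TPM in P monosomes. Its input level was 9.14 TPM in S and 530.5 TPM in P. MCM7, of the replicative helicase, had 29.6 TPM in S polysomes and 22.3 TPM in S monosomes, against 525 TPM in P polysomes and 32.2 TPM in P monosomes. CCNB1, cyclin B1, had 17.8 TPM in S polysomes and 18.3 TPM in S monosomes, against 521 TPM in P polysomes and 40.2 TPM in P monosomes. For all 3 the polysome level was far lower in S than in P, the monosome level less so, and the S level was about equal in the fractions.

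Of 47 genes of G1/S and DNA replication only 25 passed the floor, and 11 of those were lower and none higher (median -0.83), against 5.13% lower among all genes. PCNA, the sliding clamp, was at -1.61, MCM4 at -1.42 and RRM1 at -1.03. The median S minus P difference of these 25 was -1.78 in polysomes, -0.79 in monosomes and -1.85 in input RNA. Of all genes 2- to 4-fold lower in S input 11.5% were lower (median change -0.41), and of those over 4-fold lower 44.4% (median change -0.91). Whether G1/S genes differ from other genes with a like input difference was not tested. Of 39 genes of G2/M and mitosis 14 passed, with 6 lower and 1 higher (median -0.67), among them CDK1 at -1.89, KIF23 at -1.89 and KIF2C at -2.58. ANAPC11, a small subunit of the anaphase-promoting complex, was the higher one at 1.25. Members too low in S drop out under the floor. With a floor on the mean over the libraries they enter, and the medians were -1.07 for 47 G1/S genes and -1.93 for 39 G2/M genes. For a gene nearly absent from both S fractions, the added 1 TPM sets the S ratio, so its change mostly mirrors its P ratio. These medians therefore cannot be read as a stronger loss of ribosome loading in S. In bulk libraries fewer cycling cells and less of these mRNAs per cell cannot be told apart.

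Other mRNAs among the 15 lowest were the secreted neuropeptide precursor VGF at -3.09, IVNS1ABP at -2.23, CENPW at -2.09, CCDC14 at -2.08, PTTG1, securin, at -2.005 and CNOT1, the scaffold of the deadenylase complex, at -1.96. Some of the 15 rest on values near the floor of 5 TPM. CCDC14 had 5.68 TPM in S polysomes, 6.51 TPM in S monosomes and 5.02 TPM in P monosomes. CENPW had 8.54 TPM in S polysomes, 8.23 TPM in S monosomes and 8.28 TPM in P monosomes. KIF2C and FANCI were also under 10 TPM in both S fractions. CNOT1 had 14.7 TPM in S polysomes and 15.2 TPM in S monosomes, against 38.1 TPM in P polysomes and 7.22 TPM in P monosomes. Unlike the cell cycle genes, its monosome level was higher in S, and its input difference was -0.58. Chromatin enzymes had 3 of 17 lower and none higher (median -0.20), namely DNMT1 at -1.80, EZH2 at -1.43 and HDAC2 at -1.12.

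Integrins are the receptors that tie cells to the matrix. Of 16 integrin and adhesion genes measured 4 were lower (against 5.13% of all genes) and none higher, 4 lay above the median gene, and the median change was -0.68. The median S minus P difference was 0.51 in polysomes, 1.29 in monosomes and 1.26 in input. ITGB1, the common beta chain, had 299.4 TPM in S polysomes and 151 TPM in S monosomes, against 221 TPM in P polysomes and 38.5 TPM in P monosomes (-1.17). ITGA6, a laminin receptor chain, had 276 TPM in S polysomes and 241 TPM in S monosomes, against 222 TPM in P polysomes and 67.8 TPM in P monosomes (-1.17). Both were higher in S in each fraction, most of all in monosomes. ITGB5 at -1.09 and ITGB8 at -1.23 were lower in S polysomes and lower in S input. Tetraspanins lay nearer to the median gene, with CD9 at 0.30 and CD151 at 0.19. ERBB3, a receptor kinase of the melanocyte lineage, showed the pattern of ITGB1, with 205 TPM in S polysomes and 269 TPM in S monosomes, against 166 TPM in P polysomes and 80.6 TPM in P monosomes (-1.09). Of 25 extracellular matrix genes 4 were lower and 1 higher (median -0.17), among them SERPINE2 at -1.31 and COL4A2 at -1.302.

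Genes of melanocyte identity and of growth signalling were past 2-fold about as often as all genes, of which 11.2% were higher and 5.13% lower. Of 17 melanocyte lineage and neural crest genes 1 was higher, the calcium-binding protein S100A1 at 1.25, and 2 were lower, ERBB3 and RXRG at -1.16 (median -0.23). The lineage transcription factors were at -0.58 for MITF and -0.10 for SOX10, and CCND1, cyclin D1, at -0.72. MTOR was at -0.28. Of 25 mTOR complex genes 3 were higher and 1 lower (median 0.19), with the mTORC1 inhibitor AKT1S1 (PRAS40) at 1.49, AKT1 at 1.02 and the lysosomal GTPase RRAGC at -1.29. Of 22 MAPK pathway genes 2 were higher, the immediate early genes JUNB at 1.62 and FOS at 1.16, and 1 lower, the inhibitor SPRED1 at -1.27 (median 0.01). MYC did not pass the floor.

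In stress responses, mRNAs with upstream reading frames, which are translated when the initiation factor eIF2 is phosphorylated, had 4 of 20 higher and 4 lower (median -0.30). The regulator DDIT3 was at 1.32, the phosphatase subunit PPP1R15A at 1.20, ATF5 at 1.13 and IBTK at -1.25. ATF4 itself had 78.0 TPM in S polysomes and 169 TPM in S monosomes, against 232 TPM in P polysomes and 577 TPM in P monosomes (0.54), so that it leaned to monosomes in both states. ATF4 target genes had 2 of 22 higher and 4 lower (median -0.22), with asparagine synthetase ASNS at -1.64 and MTHFD2 at -1.61. The median S minus P difference of these targets was -1.48 in polysomes, -1.05 in monosomes and -1.05 in input. Cytosolic heat shock proteins had HSPB1 alone higher and 2 of 21 lower, HSP90AB1 at -1.15 and HSPH1 at -1.03 (median -0.22). Of 17 chaperonin and prefoldin genes 1 was higher, PDCD5 at 1.15, and 2 lower, the chaperonin subunits CCT8 at -1.45 and CCT4 at -1.12 (median -0.19).

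In the RNA polymerase II machinery 7 of 32 were higher and 2 lower (median 0.02), against 11.2% higher and 5.13% lower among all genes. The higher ones were the small polymerase subunits POLR2J at 1.97, POLR2I at 1.78, POLR2F at 1.52 and POLR2K at 1.17 and the Mediator subunits MED31 at 1.702, MED11 at 1.23 and MED7 at 1.02. The lower ones were the second-largest polymerase subunit POLR2B at -1.33 and MED13 at -1.62, of the Mediator kinase module. Of 41 proteasome genes 1 was higher, the catalytic immunoproteasome subunit PSMB10 at 2.10, and 1 lower, the large activator PSME4 at -1.41 (median 0.11). Of 20 autophagy genes 3 were higher, WDR45 at 1.65, GABARAPL1 at 1.32 and VMP1 at 1.16 (median 0.16). Of 12 BCL2 family genes 2 were higher, the death-promoting BAD at 1.46 and BAX at 1.26 (median 0.20). Among 15 p53 target genes BAX, TP53I3 at 2.08 and GADD45B at 1.06 were higher (median 0.22). With so few genes per group, a difference from the 11.2% of all genes was not tested.

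Lysosomal genes had 3 of 41 higher and 1 lower (median -0.04), with the enzymes GLA at 1.38, MAN2B1 at 1.11 and IDS at 1.02 the higher ones. The group was more abundant in S in polysomes (median 0.81), monosomes (0.69) and input (0.99) alike, so its ratio was nearly that of the median gene. Proteins of the endoplasmic reticulum had 5 of 52 higher and none lower (median 0.01), with the oligosaccharyltransferase subunit OST4 at 1.32, the translocon-associated SSR4 at 1.30, the co-chaperone DNAJB9 at 1.18 and the signal peptidase subunit SEC11C at 1.08. Glycolysis had GAPDH at 1.14 as its single gene past 2-fold of 18 (median -0.11). V-ATPase subunits (15 measured, median 0.05), interferon-stimulated genes (12, median -0.15) and amino acid transporters (8, median -0.29) had none past 2-fold in either direction. The median of the interferon-stimulated genes turned to 0.84 for the 7 left with a floor of 10 TPM.

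The length of the encoded protein ordered the changes. A reading frame was found in GENCODE 29 for 5493 genes. The 532 genes for proteins under 150 residues had a median change of 0.50, with 24.1% at least 2-fold higher and 0.564% lower. Proteins of 150 to under 300 residues (1485 genes) had 0.18, those of 300 to under 600 residues (2211 genes) -0.06, and those of 600 to under 1200 residues (1059 genes) -0.43. The 206 genes for proteins of 1200 or more residues had a median of -0.56, with 4.37% higher and 20.9% lower. The 5 class medians were thus lower the longer the protein. The ratio relative to the median gene was -0.84 in S and -1.38 in P for the shortest class and 0.13 in S and 0.56 in P for the longest, so the classes lay closer together in S.

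The same order held with the 13 mitochondrial genes left out (0.50 to -0.56), and among genes whose input RNA differed by less than 2-fold from the median gene (0.46 to -0.50). Across 5480 nuclear genes, the change and the protein length had a Spearman rho of -0.41 and a Pearson r of -0.33. All genes share the same 4 libraries, so this describes them and is not a replicated relation.

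Other features of the mRNA were added after the values were seen, except promoter base composition, the first transcribed bases and hydrophobic stretches. Split into 4 groups of about equal size, genes with the shortest 3′ UTR (418 bases or less) had a median change of 0.37, with 20.6% higher, and genes with the longest (2078 bases or more) -0.28, with 3.65% higher. By GC content at the third codon position, the lowest group of 4 had a median of -0.32 and the highest 0.29. Protein length and 3′ UTR length were weakly related (rho 0.14), and so were protein length and this GC content (-0.16). The 4 groups by 5′ UTR length had medians between -0.12 and 0.02, and the 4 groups by GC content of the promoter window (250 bases before to 50 after the RefSeq start) medians between -0.04 and 0.06. Genes whose annotated RefSeq start is a C followed by 4 pyrimidines, 285 of 4671 with a window and 4.04% of all 27305 windows, had a median of -0.06, against 0.00 for the others. A hydrophobic stretch within the first 40 residues, as signal peptides have, came with a median of -0.02, a stretch further on with -0.16, and none with 0.02.

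**Figure D4:**
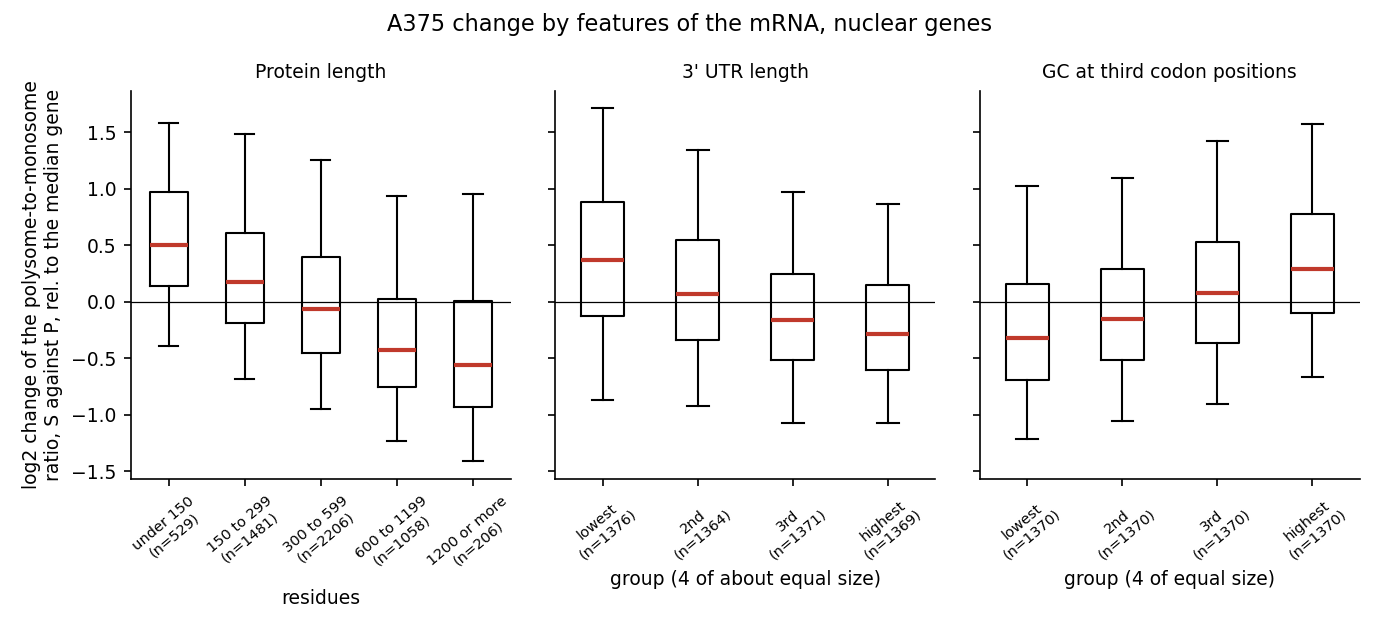
Change of nuclear A375 genes (vertical axis, log2, relative to the median gene) by class of protein length, and in 4 groups of about equal size each by 3′ UTR length and by GC at the third codon position, as boxes from quartile to quartile with a red median and whiskers from the 5th to the 95th percentile. Medians fall from 0.50 for proteins under 150 residues to -0.56 for those of 1200 or more, from 0.37 to -0.28 along 3′ UTR length, and climb from -0.32 to 0.29 along GC content.

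A ratio can change through either fraction. Of the 637 genes higher in S, 283 were past 2-fold higher in S polysomes only, 168 past 2-fold lower in S monosomes only, 18 both, and 168 neither, the ratio adding up smaller differences. Of the 291 lower genes, 154 were past 2-fold lower in S polysomes only, 54 past 2-fold higher in S monosomes only, none both and 83 neither. The median S minus P difference of the higher genes was 0.92 in polysomes and -0.48 in monosomes, and that of the lower genes -1.04 in polysomes and 0.26 in monosomes. Since these genes were picked by the polysome minus the monosome difference, opposite signs of these medians follow in part from the choice. Polysome differences past 2-fold were common among all genes too, with 14.1% higher and 12.3% lower in S, against 9.32% higher and 10% lower in monosomes.

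The change went along with the abundance of the mRNA. Of the 291 lower genes 137 were also at least 2-fold lower in S input RNA and 20 higher, while 13.3% of all genes were lower in S input and 12.6% higher. Of the 637 higher genes 167 were higher in S input and 31 lower. The 153 genes over 4-fold lower in S input had a median change of -0.91 and 44.4% of them were lower. The 133 over 4-fold higher had a median change of 0.40 and 24.8% were higher. Within 2-fold of input, 4206 genes had a median of 0.02, with 10.4% higher and 3.19% lower. Over all 5673 genes the change and the input difference had a Spearman rho of 0.35 and a Pearson r of 0.35, measured in separate libraries of the same cells. The part of mRNA abundance in the change was not tested.

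In Yumm1.7 the same change could be set beside that of A375 for 2925 genes matched by symbol, from libraries with nothing in common. There, 18.3% of 4194 genes were at least 2-fold higher in S and 9.51% lower. Over the matched genes the changes had a Pearson r of 0.33 and a Spearman rho of 0.23, or an r of 0.22 and a rho of 0.21 without the mitochondrial genome. Of the matched genes 351 were higher in A375 and 448 in Yumm1.7, and 113 in both, which is 32.2% of the A375 genes and 25.2% of the Yumm1.7 genes. Among all matched genes 12% were higher in A375 and 15.3% in Yumm1.7. Of 95 lower in A375 and 281 in Yumm1.7, 14 were lower in both, which is 14.7% of the A375 genes and 4.98% of the Yumm1.7 genes. Opposite calls were made for 12 genes higher in A375 and lower in Yumm1.7 and for 16 lower in A375 and higher in Yumm1.7.

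The mitochondrial mRNAs were higher in both lines, with a median of 3.79 for 13 genes in A375 and 4.22 for 12 in Yumm1.7. FTH1 was at 3.95 in A375 and 3.98 in Yumm1.7, and NOP56 at 3.41 in A375 and 1.54 in Yumm1.7. Protein length ordered the Yumm1.7 genes as well, with class medians of 0.58, 0.19, -0.19, -0.46 and -0.67 from the shortest to the longest, taking lengths from the human proteins. EIF3B was low in both, at -1.19 in A375 and -1.41 in Yumm1.7, as was HNRNPM, at -1.28 in A375 and -2.01 in Yumm1.7. For selenoproteins 6 of 14 were higher in A375 and 3 of 13 in Yumm1.7 (18.3% of all genes there), with GPX1 at 2.11 in A375 and 2.18 in Yumm1.7, but GPX4 at 2.28 in A375 and 0.26 in Yumm1.7.

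Of 79 ribosomal protein mRNAs only 6 were listed for A375, and 1 of the 6 was higher. In Yumm1.7, 76 of the 78 that passed the floor were higher, with a median of 2.72, so the counts cover unlike sets of genes. Of the other TOP mRNAs 4 of 30 were higher in A375 and 14 of 27 in Yumm1.7 (median 1.18 there). These counts include the noncoding SNHG1, at 1.19 in A375 and 1.18 in Yumm1.7. RPLP0 was at 0.60 in A375 and 3.28 in Yumm1.7. FAU was at -0.52 in A375 and 3.39 in Yumm1.7, and EEF1A1 at -1.20 in A375 and 1.696 in Yumm1.7. Of complex I subunits 5 of 36 were higher in A375 (median 0.29) and 23 of 37 in Yumm1.7 (median 1.18). Differences between the lines were not tested.

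**Figure D5:**
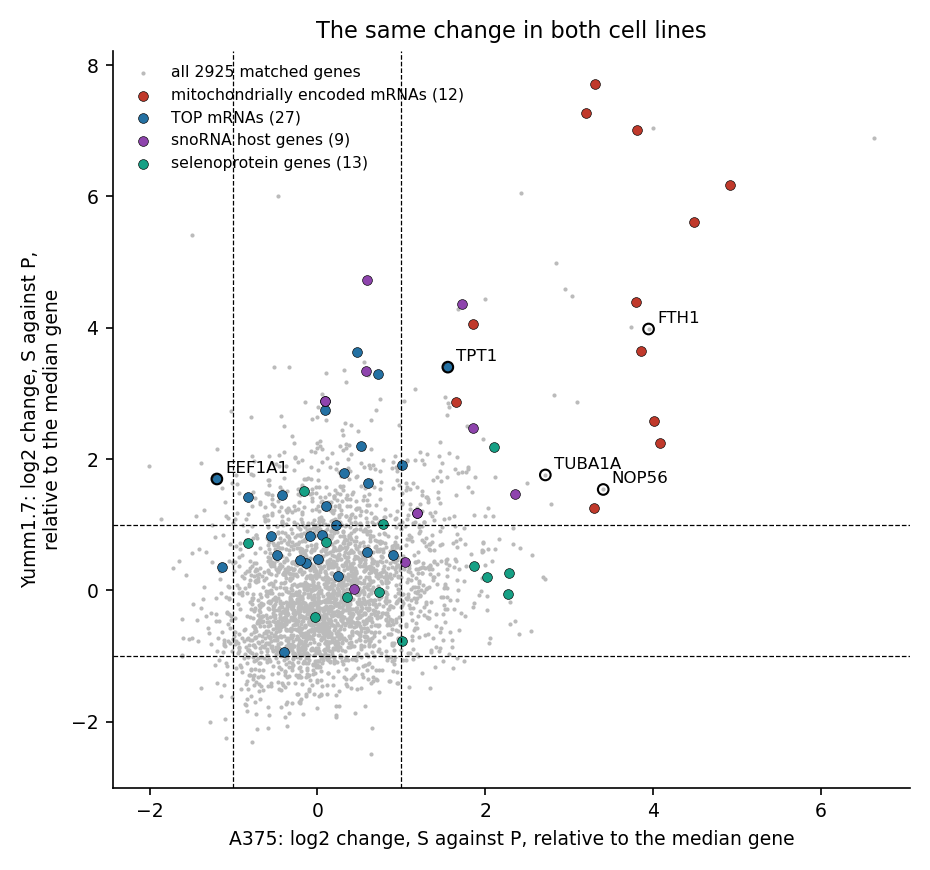
Change in Yumm1.7 (vertical axis) against change in A375 (horizontal axis), both log2 of S against P relative to the median gene of the line, for 2925 genes matched by symbol, with 4 gene groups coloured and dashed lines at 2-fold. The 12 mitochondrially encoded mRNAs are in the upper right in both lines, while EEF1A1 lies left of the lower A375 line at -1.20 and above the upper Yumm1.7 line at 1.696.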

How the data were processed

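RNA sequencing libraries of polysome profiling were deposited as 1 table of TPM per cell line. Per the labels' protocols, libraries were made from mRNA captured on poly-T beads, with random primers. The TPM values were made by the authors from their reads, and per the submitters' processing notes the builds were GRCh38 and GRCm38. No source used here names the aligner, the quantifier, the annotation release or the strand setting, and depth cannot be had from TPM, so no counting error is given. TPM is relative within a library and says nothing of the amount of RNA in a fraction.

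From these values the change was computed on log2(TPM + 1), with a floor of 5 TPM in all 6 libraries of a line and the median gene subtracted. For low genes this scale draws the ratio of each state towards no difference, which can make their change smaller or larger. With 0.1 TPM added in place of 1, JUNB went from 1.62 to 1.72 and SNHG3 from 1.85 to 1.72. The calculation was tested on simulated data. Some genes of the lists are counted but not reported here by name. The members and the 49 gene lists were chosen with earlier results of these data known. Named genes are the 15 highest and 15 lowest, up to 4 members of each list past 2-fold, 6 each way among genes that crossed the median, the 6 highest and the 6 lowest shared with Yumm1.7, and 16 translation and melanoma genes set by name. Other members of a list given by name, and genes given for a list's full range, were chosen after their values were seen. UTR lengths, GC at the third codon position, the hairpin pattern, the classes by input and codon positions were added after values were seen. Reading frames came from GENCODE 29, with 1 transcript per gene, and promoter windows from RefSeq. Hydrophobic stretches were windows of 19 residues with a mean Kyte-Doolittle value of at least 1.6. Tools were Python 3.11.15, pandas 2.3.3, numpy 2.4.6 and matplotlib 3.10.9.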

Additional observations from a re-analysis of the deposited data

Results flagged for a closer look

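Of the genes named here, 8 were past 2-fold in opposite directions in the 2 cell lines. With 1 library per group the difference between the lines was not tested. Lower in A375 S and higher in Yumm1.7 S were EEF1A1 (-1.20 in A375, 1.696 in Yumm1.7), securin PTTG1 (-2.005 in A375, 1.89 in Yumm1.7), the chaperonin subunit CCT8 (-1.45 in A375, 1.13 in Yumm1.7), the splicing protein SNRPA1 (-1.35 in A375, 1.22 in Yumm1.7) and the mitochondrial chaperone TRAP1 (-1.10 in A375, 1.35 in Yumm1.7). Higher in A375 S and lower in Yumm1.7 S were the mTORC1 inhibitor AKT1S1 (1.49 in A375, -1.07 in Yumm1.7), PPP1R15A (1.20 in A375, -1.01 in Yumm1.7) and the kinase AKT1 (1.02 in A375, -1.06 in Yumm1.7).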

How the results depend on the processing

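The share of genes at least 2-fold higher was 11.2% and the share lower 5.13% (637 and 291 genes). With a floor of 10 TPM in all 6 libraries the shares of the 3602 genes left were 10.4% higher and 4.78% lower, so both counts were more than 1.5 times smaller with fewer genes entering. A mean of at least 1 TPM gave 13.1% higher and 7.88% lower (1651 and 996 of 12638 genes), no filter 10.1% higher and 7.95% lower (1695 and 1334 of 16782), and no centring on the median gene 6.10% higher and 14.9% lower (346 and 843). A pseudocount of 5 gave 505 higher and 196 lower, a pseudocount of 0.1 gave 670 and 332, and TPM rescaled without the mitochondrial genome 624 and 297. The median of the iron group turned to -0.0888 with a mean of at least 1 TPM and to -0.18 with no filter, each with 8 members counted in place of 5. The median of the interferon-stimulated genes turned to 0.84 with the floor of 10 TPM. Of 43 group medians 15 turned sign without centring, which shifts all of them by -0.33, and 12 with no filter. The 141 named genes past 2-fold kept their sign wherever they had a value, but 97 had one with the floor of 10 TPM and 130 without the mitochondrial genome. The 5 medians by protein length were within 2-fold at the main setting and stayed so at the others, which does not check their order. Leaving out the centring shifts these medians by -0.33 as well. Of 152 named genes, 34 moved across 2-fold without centring, 16 with a pseudocount of 5 and 11 with no filter. No paired analysis was possible because each group has 1 library, and for the same reason no library could be left out. Depth is unknown, so how far it limits low genes cannot be given.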
